A study of Mus musculus with 12 samples.

Results

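Symptomatic brains of mice with experimental autoimmune encephalomyelitis (EAE) were compared between mice given cannabidiol (CBD) and mice given its vehicle, corn oil (CO). EAE is a model of multiple sclerosis in which mice immunised with a myelin peptide develop ascending paralysis. The comparison covers 6 of the 12 brains of the series, the other 6 being asymptomatic. It was read in 2 ways. The authors' deposited table of this comparison holds 14 genes at FDR ≤ 0.05. For the 17300 genes of 50457 listed that had a p-value within both treatments, the symptomatic mean of each treatment was taken from the deposited comparisons of asymptomatic with symptomatic mice, and the CBD mean was set over the CO mean. This extension to all genes is descriptive and carries no test.

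All mice were female C57BL/6J, 8 to 12 weeks of age, and were immunised with MOG35-55 in complete adjuvant without pertussis toxin. Dosing started 24 h later and lasted 5 days, by mouth, with CBD at 75 mg/kg in corn oil or with corn oil alone. Brains were collected on Day 18, and a mouse with any clinical score above 0 was symptomatic. The comparison asks how gene expression in the brain of a sick mouse differed with CBD. The study placed 3 mice in each group, with 2 of cohort A and 1 of cohort B under EAE/CBD symptomatic and 1 of cohort A and 2 of cohort B under EAE/CO symptomatic. The sample labels instead list 1 cohort B mouse of the latter group as CBD-treated, which gives 4 and 2 mice, and which grouping the authors' fit used cannot be read from the labels. The clinical scores listed by the study were higher in the EAE/CBD symptomatic mice. Treatment, cohort and clinical score therefore cannot be told apart fully in this comparison.

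RNA came from whole brain and was sequenced as paired 150 base reads, at a depth that the labels give per sample but that says nothing of single genes. No values per mouse were available here, so every level below is the mean of a group, in the unit of the deposited tables, which is not stated. A gene's larger mean is deposited directly, and the smaller 1 follows from the fold-change beside it. Spread between mice enters only through the p-values of the authors' model. In whole-brain RNA, fewer cells of a type and less RNA per cell cannot be told apart.

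Several of the genes described are known for a place in the nervous system. *Hox* genes encode homeodomain transcription factors that give segments of the hindbrain and spinal cord their identity along the head-to-tail axis, and they stay active there while the forebrain lacks them. Noradrenaline is made by small nuclei of the brainstem, acetylcholine by motor neurons and by groups of forebrain neurons, and glycine is the fast inhibitory transmitter of brainstem and spinal cord. Peptides such as orexin, agouti-related peptide and melanin-concentrating hormone come from small groups of hypothalamic neurons.

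In the authors' deposited table, 13 genes were higher and 1 was lower in EAE/CBD symptomatic than in EAE/CO symptomatic mice, and 8 of the 14 were *Hox* genes. The number of genes tested is not given, but the ratio of the Bonferroni to the plain p-values places it between 17783 and 17850, so that at most 0.0787% of the genes tested were called. The levels were low. The larger of both means was 0.33 to 12.71, and 12 of the 14 genes reached a level of 1.

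*Hoxb5* and *Hoxb8* lie in the *Hoxb* cluster on chromosome 11 (GRCm39) and act in the patterning of the hindbrain and the cervical to thoracic cord. The level of *Hoxb5* was 8.85 in EAE/CBD symptomatic mice, a deposited mean, and 0.085 in EAE/CO symptomatic mice, an implied mean, beside 4.62 in EAE/CO asymptomatic mice. Its log2 fold change in the authors' model was 9.03 (95% interval 6.33 to 11.7, FDR = 1.07e-06 by the negative binomial model). The EAE/CO symptomatic mice thus stood at a low level beside both of these groups. *Hoxb8* showed the same order, with 4.11 in EAE/CBD symptomatic, 0.342 in EAE/CO symptomatic and 2.64 in EAE/CO asymptomatic mice. *Hoxb6* was at 3.91 with CBD and 0.197 with CO in symptomatic mice, and *Hoxb2*, which acts in the rostral hindbrain, at 2.71 and 0.572. *Hoxb3* was the *Hox* gene of the table at the lowest level, 0.70 with CBD and 0.0464 with CO.

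*Hoxa4*, *Hoxa5* and *Hoxc4* belong to the clusters on chromosomes 6 and 15. *Hoxa5*, needed for the phrenic motor column and for breathing, had a level of 6.84 in EAE/CBD symptomatic and 0.173 in EAE/CO symptomatic mice, with 5.80 and 3.24 in the asymptomatic groups. For *Hoxa4* the symptomatic levels were 2.63 with CBD and 0.0798 with CO, and for *Hoxc4* they were 1.33 and 0.0461. Over the 8 *Hox* genes, symptomatic levels ran from 0.70 to 8.85 with CBD and from 0.0461 to 0.572 with CO.

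The other genes higher with CBD encode proteins of transmitter systems. *Dbh*, the enzyme that converts dopamine to noradrenaline, had a level of 4.16 in EAE/CBD symptomatic and 0.235 in EAE/CO symptomatic mice (log2 fold change 5.65 in the authors' model, 95% interval 3.71 to 7.59). *Slc6a2*, the transporter that takes noradrenaline up again, had levels of 1.48 and 0.078. *Chat*, which makes acetylcholine, had 1.09 and 0.0347 (authors' model, 95% interval of the log2 fold change 2.87 to 7.27). *Glra1*, a glycine receptor subunit of the adult brainstem and cord, had 1.66 and 0.0416. Its FDR of 0.05 by the negative binomial model was the highest in the table. *Trh*, the precursor of thyrotropin-releasing hormone, was the most abundant of the 14 genes, at 12.71 with CBD and 0.539 with CO.

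*Pde6a* encodes a subunit of the rod photoreceptor phosphodiesterase and was the only gene of the 14 that was lower with CBD. Among symptomatic mice its level was 0.33 with CO and 0.0202 with CBD, and among asymptomatic mice it was 0.13 with CO and 0.11 with CBD. The authors' log2 fold change was -4.83 (95% interval -7.00 to -2.67, FDR = 0.02 by the negative binomial model). Of 17 measured genes of rod and cone phototransduction only *Rom1* and *Guca1a* reached a level of 1, and their implied log2 ratios were -0.03 and 0.04.

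**Figure D1:**
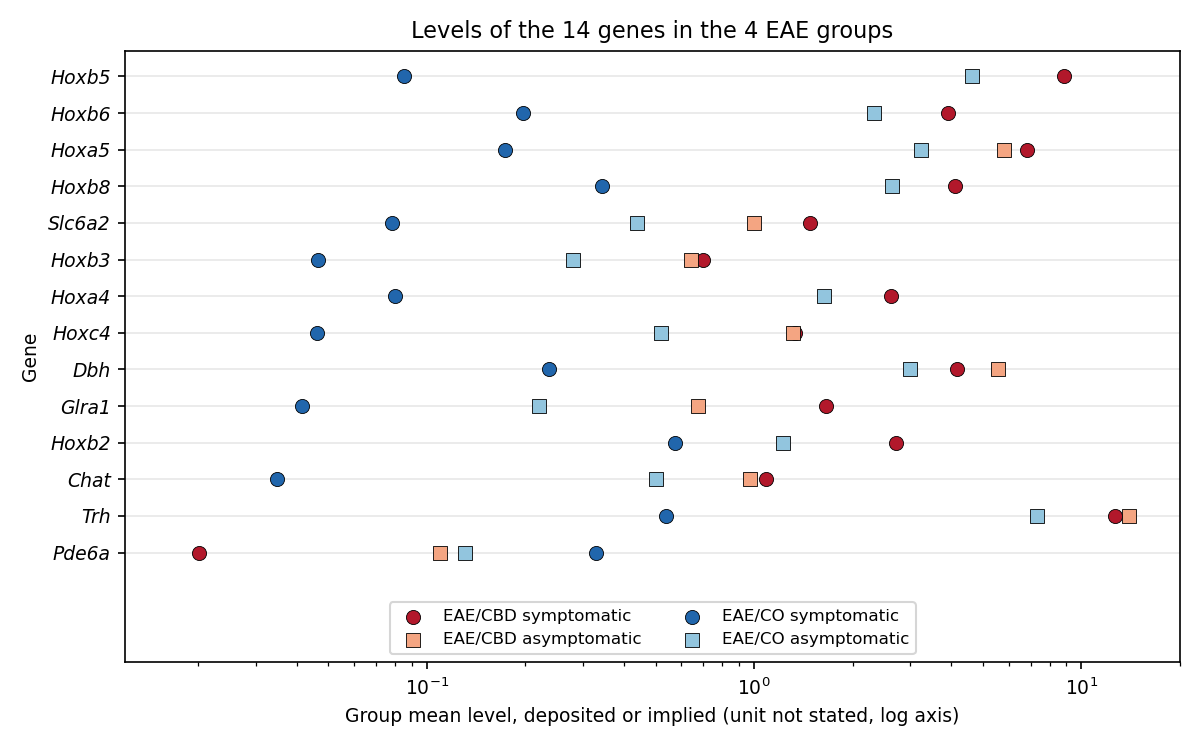
Group mean levels of the 14 genes of the authors' deposited table in the EAE groups on a log axis, deposited or implied by a fold-change; circles are symptomatic and squares asymptomatic groups, no error is known, and the EAE/CBD asymptomatic mean is left out for the 5 genes where it could not be placed. In 13 genes the EAE/CO symptomatic group is the lowest of those drawn, and *Pde6a* is lowest in EAE/CBD symptomatic mice.

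The position of the EAE/CO symptomatic group was the common feature of the table. In 13 of the 14 genes it had the lowest of the means that could be placed. These genes were selected for a difference from that same group, so this order is in part a product of their selection. The EAE/CBD asymptomatic mean could be placed for 9 genes, and it lay within 2-fold of the EAE/CBD symptomatic mean in 7 of them, *Pde6a* and *Glra1* being the others. The EAE/CO asymptomatic mean was 2.15 to 54.4 times the EAE/CO symptomatic mean in the 13 genes higher with CBD.

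The comparisons within each treatment tested the same genes separately. Between EAE/CBD asymptomatic and symptomatic mice, where 2.83% of genes tested were called, 0 of the 14 passed FDR ≤ 0.05 by the negative binomial model and 0 had an unadjusted p under 0.05. Between EAE/CO asymptomatic and symptomatic mice, where 2.21% were called, *Hoxb5* passed with a log2 fold change of 5.76 (FDR = 0.00546 by the negative binomial model) and *Trh* with 3.77 (FDR = 0.03), both lower in symptomatic mice, and 7 of the 14 had an unadjusted p under 0.05. *Dbh* had a log2 fold change of 3.67 in that comparison and an FDR of 0.11. Each of these comparisons shares its symptomatic mice with the comparison of CBD and CO, so they are not separate evidence on those mice.

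The implied means were set beside the means deposited for the comparison of CBD and CO. Over the 14 genes the implied mean was 0.716 to 1 times the deposited 1, and it was equal for 7. *Trh* was farthest, at 9.10 against 12.71. In 5 *Hox* genes, *Hoxb5*, *Hoxb8*, *Hoxb6*, *Hoxa4* and *Hoxb2*, the deposited mean of the symptomatic group was the larger mean of the within-CBD table, while the fold-change sign there pointed to the asymptomatic group. The asymptomatic mean of these genes is therefore not known, and their symptomatic mean is printed as deposited, while ratios over all genes keep the implied mean. The fold-changes are therefore not plain ratios of the means, and an implied mean carries that error. For *Hoxb8* the CO symptomatic mean was 0.342 by the within-CO table and 0.0159 by the table of CBD against CO.

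The implied log2 ratio was smaller in size than the authors' log2 fold change in 14 of 14 genes. The gap ran from 0.10 for *Chat* to 4.70 for *Hoxb8*, with a median of 2.36. The implied ratio lay inside the 95% interval of the authors' value for 8 genes and outside it for *Hoxb8*, *Hoxa5*, *Slc6a2*, *Hoxb6*, *Hoxb3* and *Hoxb2*. Both measures had the same direction in every gene of the table, while the size of the change depended on the measure.

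**Figure D2:**
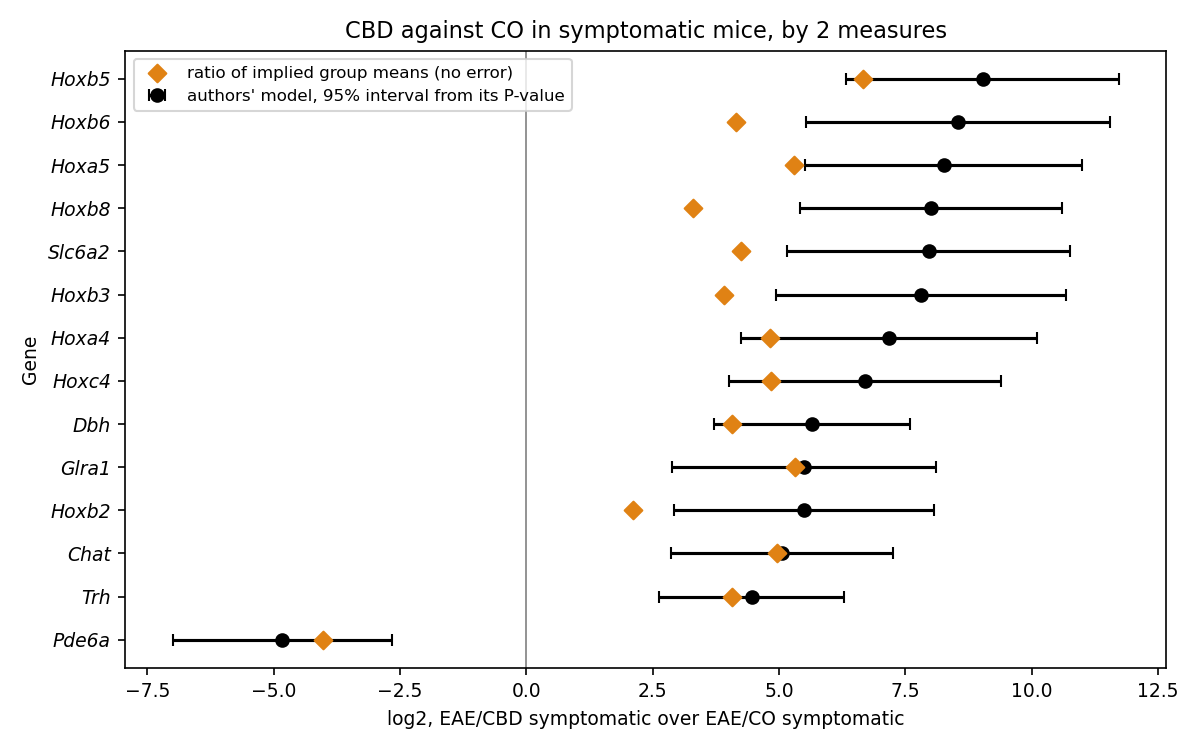
log2 of EAE/CBD symptomatic over EAE/CO symptomatic for the 14 genes; black points are the authors' model with 95% intervals computed from its p-value, and orange diamonds are ratios of implied means, which have no error. Each diamond lies closer to 0 than its black point, and 8 of the 14 lie inside the interval.

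Of the 14 genes, 4 overlap the span of another protein-coding gene in GENCODE. *Hoxa4* and *Hoxa5* lie within the span of *Hoxa3*, while *Hoxb3* holds exons of *Hoxb4* and *Chat* holds those of *Slc18a3*. The sources used here do not say how reads from such shared stretches were counted, so these values are uncertain. The implied log2 ratio of *Hoxb4* was 0.92, well under the 3.91 of *Hoxb3*, and *Slc18a3*, the vesicular acetylcholine transporter, had 3.26 beside 4.97 for *Chat*.

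Promoter sequences were available for 6 of the 14 genes in the RefSeq table used (GRCm38.p6), and each 250 base stretch before the annotated start matched 1 place in GRCm39. The 4 shown are a pair of *Hox* genes, a noradrenergic and a peptide gene, all higher with CBD in the symptomatic table. Capitals mark 2 motifs searched on both strands, AGGTCA, the half-site bound by retinoic acid receptors, and TATAAA, the TATA box core.
Hoxb8 (chr11:96172481-96172730, plus strand): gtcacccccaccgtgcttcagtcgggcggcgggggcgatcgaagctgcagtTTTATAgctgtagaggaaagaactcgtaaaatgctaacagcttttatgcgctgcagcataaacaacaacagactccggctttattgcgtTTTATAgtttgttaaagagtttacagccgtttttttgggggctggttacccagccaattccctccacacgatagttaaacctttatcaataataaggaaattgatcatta
Hoxc4 (chr15:102942571-102942820, plus strand): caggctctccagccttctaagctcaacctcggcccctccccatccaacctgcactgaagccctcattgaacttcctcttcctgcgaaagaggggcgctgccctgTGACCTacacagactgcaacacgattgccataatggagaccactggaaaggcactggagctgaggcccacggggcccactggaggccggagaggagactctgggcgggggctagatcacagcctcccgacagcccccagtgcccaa
Dbh (chr2:27055269-27055518, plus strand): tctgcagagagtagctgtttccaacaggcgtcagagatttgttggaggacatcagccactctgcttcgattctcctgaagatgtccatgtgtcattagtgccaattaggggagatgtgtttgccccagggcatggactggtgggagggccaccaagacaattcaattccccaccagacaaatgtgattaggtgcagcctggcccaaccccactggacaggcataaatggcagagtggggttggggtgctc
Trh (chr6:92221632-92221881, minus strand): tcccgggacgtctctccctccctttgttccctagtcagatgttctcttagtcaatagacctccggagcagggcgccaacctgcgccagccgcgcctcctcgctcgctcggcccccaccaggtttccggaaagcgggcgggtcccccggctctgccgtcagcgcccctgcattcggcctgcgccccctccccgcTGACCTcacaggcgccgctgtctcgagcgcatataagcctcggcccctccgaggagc

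*Hoxc4* and *Trh* each held 1 AGGTCA on the strand opposite to the one printed, where it reads TGACCT, which 14% of all 32851 promoters of this length held on either strand. *Hoxb8* held 2 copies of TATAAA, both read as TTTATA, and 12.4% of all promoters held at least 1. The other motif searched, the cyclic AMP response element TGACGTCA, was in none of the 6 and in 1.55% of all promoters. The 6 stretches had little in common in base composition. *Hoxa5* and *Trh* held 28 and 25 CpG dinucleotides, *Hoxb8* 12, *Chat* and *Hoxc4* 8 each and *Dbh* 2, against a median of 6 over all promoters. For *Hoxb8* and *Hoxc4* the RefSeq start lies inside the longer gene span of the deposited table, so these stretches belong to 1 of several starts. These matches describe the letters only.

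Among the 12729 genes with an implied level of at least 1 in either symptomatic group, most had nearly the same level with CBD and CO. The median log2 ratio was 0.04, the middle 50% of genes lay between -0.18 and 0.26, and 91.9% were within 1.5-fold. A level at least 2-fold higher with CBD was found for 130 genes, or 1.02%, and a level at least 2-fold lower for 64, or 0.503%. At more than 4-fold the counts were 38 and 3. The genes past 2-fold were mostly scarce, with median levels of 2.70 for those higher and 2.40 for those lower, against 7.95 over all. The 12 genes of the authors' deposited table that reached a level of 1 are all among the 130, which their selection fixes.

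The basis of the ratio differed between these groups of genes. In 3540 genes the fold-change sign placed the larger mean in symptomatic mice in both treatments, and both symptomatic means are called deposited. Of these, 17 (0.480%) were at least 2-fold higher and 4 (0.113%) at least 2-fold lower with CBD. As the sign pointed to the other group for 5 *Hox* genes above, this placing is inferred from the sign and is not given. Of the 130 genes higher with CBD, 73 had a CO mean that was implied and a CBD mean that was deposited, and for 39 both were implied. The median standard error of the log2 fold change within EAE/CO was 0.91 in the 130 genes and 0.52 over all genes at this level, so their means are less certain than most.

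**Figure D3:**
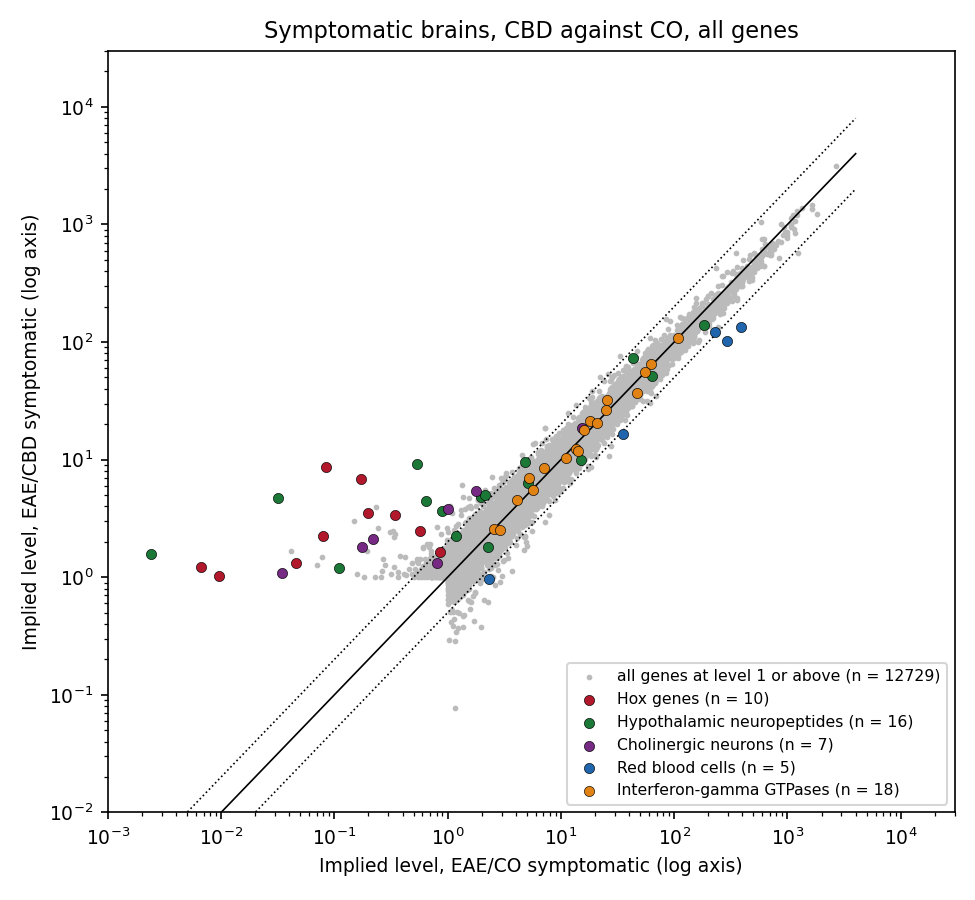
Implied level of 12729 genes in EAE/CO symptomatic (horizontal) and EAE/CBD symptomatic mice (vertical), both on log axes, with 5 gene lists in colour; the solid line marks equal levels and the dotted lines 2-fold. Most *Hox* genes and cholinergic markers and several neuropeptides lie above the upper dotted line at low CO levels. Red cell genes lie below the solid line, and interferon-gamma GTPases lie along it.

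The 10 highest ratios included 6 genes of the authors' deposited table and 6 *Hox* genes. *Hcrt*, the precursor of the orexins of the lateral hypothalamus, led with an implied level of 1.59 in EAE/CBD symptomatic and 0.00239 in EAE/CO symptomatic mice, a log2 ratio of 9.38. In the asymptomatic groups *Hcrt* was at 75.7 with CBD and 8.99 with CO. The next were *Hoxc5* (log2 ratio 7.51, level 1.22 with CBD), *Agrp*, the hunger peptide of the arcuate nucleus (7.21, level 4.75 with CBD), and *Hoxb7* (6.74, level 1.03 with CBD). None of these 4 is in the authors' deposited table. The CO means of *Hcrt*, *Hoxc5* and *Hoxb7* were below 0.01 and were implied by fitted fold-changes, so the size of these ratios is uncertain.

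The 10 lowest ratios held no gene of the authors' deposited table. *Smim22*, which encodes a small membrane protein, had an implied level of 0.0772 with CBD and 1.16 with CO in symptomatic mice, a log2 ratio of -3.91. *Six3*, a transcription factor of the anterior forebrain, was at 0.380 with CBD and 1.98 with CO (log2 ratio -2.38), and *Robo3*, an axon guidance receptor of commissural neurons, at 0.429 and 1.70 (-1.99). *Gm14296*, *Gm40365*, *Crb3*, *Smim38*, *Vsig2*, *Capn11* and *Sln* followed with ratios down to -2.03 and levels with CO of 1.03 to 3.67. *Crb3* and *Vsig2* hold exons of *Dennd1c* and *Nrgn*, so their reads are uncertain. *Capn11*, a calpain protease, was at 0.372 with CBD and 1.24 with CO.

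Among abundant genes few were past 2-fold. Of 5502 genes at a level of 10 or more, 12 were at least 2-fold higher and 9 at least 2-fold lower with CBD. The following were picked after their values were seen. *Arg1*, an arginase of macrophages, was at 18.6 with CBD and 7.26 with CO, and *Chil3*, a chitinase-like protein of monocytes and macrophages, at 18.6 and 7.18, all 4 values deposited means. *Gpnmb*, a glycoprotein of lipid-laden macrophages and microglia, was at 13.8 and 5.86. The others of the 12 were *Mobp*, *Hspb1*, *Ccl6*, *Frrs1l*, *Caln1*, *Gna12*, *Scd1*, *Scn4b* and *Sncg*, the last at 50.9 with CBD and 22.1 with CO. *Ttr*, the thyroid hormone carrier of the choroid plexus, was the most abundant of the lower genes, at 568 with CBD and 1238 with CO. *Lyl1*, a transcription factor of blood-forming cells, was at 10.8 and 26.6.

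*Hox* genes were described as a family from a list of 39, of which 22 were measured. At a level of 1, 9 of 10 had at least 2-fold higher implied levels with CBD and 0 had lower ones, against 1.02% and 0.503% of all genes. The median log2 ratio was 4.83. The highest CO level of a *Hox* gene was 0.86, so all 10 reached a level of 1 through the CBD mean alone. A lower gene could thus not occur among them. Most of the 9 are in the authors' deposited table and were selected for this difference. With no minimum level, 19 of 22 were at least 2-fold higher and 0 lower, against 5.47% and 4.69% of all genes counted that way, with a median of 3.53. Of the 22, 12 lay below a level of 1, while 12729 of all 17300 genes reached it. Genes past 2-fold were more common without the minimum, so these shares do not match the *Hox* genes in level. Outside the 8 genes of the authors' deposited table, 11 of 14 were at least 2-fold higher, with a median of 2.66, and only *Hoxb4*, *Hoxb7* and *Hoxc5* among them reached a level of 1. *Hoxb4* was the gene of the 3 with both means deposited, at 1.63 with CBD and 0.860 with CO. That placing rests on log2 fold changes of -0.47 within EAE/CBD and -0.85 within EAE/CO, asymptomatic over symptomatic.

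With no minimum level, the counts at least 2-fold higher with CBD were 6 of 7 in *Hoxa*, 6 of 7 in *Hoxb*, 3 of 3 in *Hoxc* and 4 of 5 in *Hoxd*. Over all genes, mostly at a level of 1 or above, this share was 5.47%. *Hoxd3* and *Hoxd4* had implied levels of 0.890 and 0.590 with CBD and 0.00369 and 0.0437 with CO, and no measured *Hoxd* gene reached a level of 1 or is in the authors' deposited table. By paralog group, 13 of 14 measured genes of groups 4 to 8 and 6 of 7 of groups 1 to 3 were past 2-fold. *Hoxd13*, the only measured gene of groups 9 to 13, which act farther towards the tail, was at 0.03 in both groups.

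**Figure D4:**
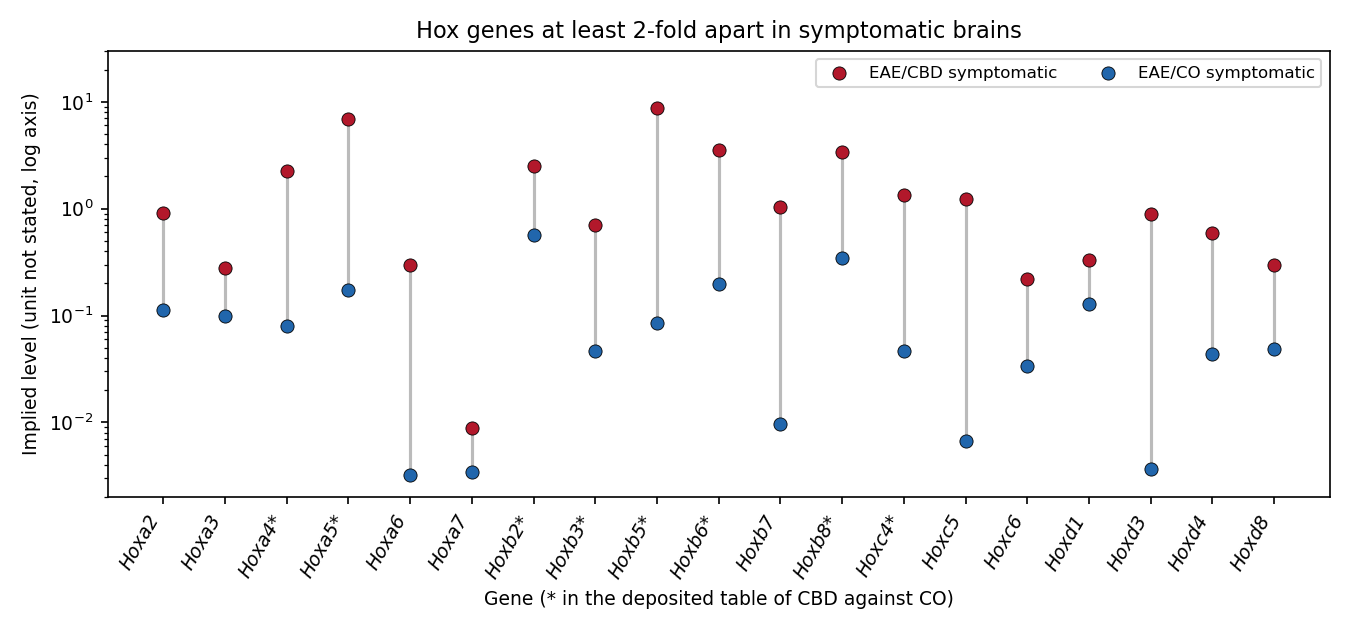
Implied levels of the 19 *Hox* genes at least 2-fold apart, of 22 measured, in EAE/CBD symptomatic (red) and EAE/CO symptomatic mice (blue) on a log axis, ordered by cluster; grey lines join both means and no error is known. In all 19 genes shown the CBD mean lies above the CO mean, and stars mark the 8 genes of the authors' deposited table.

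The transcription factors of hindbrain and spinal interneurons, which are known from the same regions, did not share that pattern at a level of 1. Of 7 such genes 0 were at least 2-fold higher and 1, *En1*, was lower, against 1.02% and 0.503% of all genes. The median log2 ratio was -0.12. *En2*, a factor of the midbrain and cerebellum, was at 11.1 with CBD and 12.1 with CO. With no minimum level, 10 of 18 were at least 2-fold higher and 1 lower, with a median of 1.18, so this list's median depends on its scarce members. Over all genes, most of which reached a level of 1, these shares were 5.47% and 4.69%.

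Markers of noradrenergic neurons were above or near the median of all genes. The median log2 ratio of 7 at a level of 1 was 1.27, and 0 of the 7 had both symptomatic means deposited. Of these, 4 were at least 2-fold higher with CBD and 0 lower, against 1.02% and 0.503% of all genes. Beside *Dbh* and *Slc6a2*, which are in the authors' deposited table, these were *Gal*, the galanin precursor, at 3.69 with CBD and 0.894 with CO, and *Slc18a2*, the vesicular monoamine transporter, at 3.88 and 1.60. *Dbh* and *Slc6a2* were thus selected for this difference. *Dbh*, *Slc6a2* and *Gal* reached a level of 1 only through their CBD means, so they could not have been counted as lower. *Th*, which makes the dopamine from which noradrenaline is formed and is shared with dopamine neurons and olfactory bulb cells, was at 7.28 and 7.18. Serotonin neuron markers had a median of 0.30 with 0 of 5 past 2-fold at a level of 1, and 3 of 10 were at least 2-fold higher with no minimum level, with a median of 0.58. *Tph2*, the defining enzyme, was at 1.76 with CBD and 0.984 with CO. Dopamine neuron markers had a median of 0.02 over 5 genes, and 1 of them, *En1*, was at least 2-fold lower, at 0.473 with CBD and 1.40 with CO. With no minimum level, 3 of 10 were at least 2-fold lower and 0 higher, with a median of -0.61. Over all genes counted with no minimum, most of which reached a level of 1, 5.47% were higher and 4.69% lower.

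Of 7 cholinergic markers at a level of 1, 5 were at least 2-fold higher with CBD and 0 lower, against 1.02% and 0.503% of all genes. The median was 1.90, and 0 of the 7 had both symptomatic means deposited. *Slc5a7*, the choline transporter, was at 1.80 with CBD and 0.175 with CO and *Slc18a3* at 2.12 and 0.221, and neither is in the authors' deposited table. *Chat*, which is in it, was selected for this difference. *Chat*, *Slc5a7* and *Slc18a3* reached a level of 1 only through their CBD means, so they could not have been counted as lower. *Calca* and *Prph*, which motor neurons share with sensory neurons, had log2 ratios of 1.90 and 1.58, and *Ache*, acetylcholinesterase, had 0.28 at a level of 18.7. Among 8 genes of glycinergic transmission, only *Glra1* and *Slc6a5*, the glycine transporter of glycinergic terminals, were past 2-fold, and the median was 0.37. *Glra1* is in the authors' deposited table and was below a level of 1 with CO. *Slc6a5* was at 6.12 with CBD and 1.33 with CO, both deposited means. *Glrb*, the receptor's beta subunit, was at 47.5 and 33.9.

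The median of 16 hypothalamic neuropeptides and related genes at a level of 1 was 1.11, and 0 had both symptomatic means deposited. Of these 16, 8 were at least 2-fold higher with CBD and 0 lower, against 1.02% and 0.503% of all genes. Beside *Hcrt*, *Agrp*, *Trh* and *Gal*, these were *Pmch*, the precursor of melanin-concentrating hormone (4.46 with CBD and 0.643 with CO), *Prlh* (1.19 and 0.110), *Nts*, neurotensin (4.78 and 1.96), and *Crh*, corticotropin-releasing hormone (5.02 and 2.15). All of them but *Nts* and *Crh* reached a level of 1 only through their CBD means, and so could not have been counted as lower. *Trh* was also selected for this difference in the authors' deposited table. The peptides that are also made widely in cortex and striatum went both ways, with *Sst* at 140 and 182, *Penk* at 73.0 and 43.5 and *Npy* at 51.0 and 64.3. *Oxt*, oxytocin, was at 0.021 with CBD and 0.0346 with CO and *Avp*, vasopressin, at 0.439 and 0.0823, both below the minimum level in symptomatic mice. In asymptomatic mice their levels were 27.6 and 142 with CBD and 2.56 and 20.4 with CO. Only 3 of 18 hypothalamic transcription factors reached a level of 1, with a median of 0.11, and *Six3* was the 1 of them past 2-fold. With no minimum level 9 of the 18 were at least 2-fold higher and 4 lower, with a median of 0.95. The shares of all genes counted that way, mostly at a level of 1 or above, were 5.47% and 4.69%.

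Markers of other brain regions had medians nearer to that of all genes. Of all genes 1.02% were at least 2-fold higher and 0.503% lower, so the counts of 0 below are near those shares. Cortex and hippocampus markers had a median log2 ratio of 0.11 with 0 of 14 past 2-fold, and *Slc17a7*, the glutamate transporter of cortical terminals, was at 254 with CBD and 243 with CO. Cerebellar markers had a median of -0.30 with 0 of 14 past 2-fold, *Pcp2* of Purkinje cells being at 227 and 362. Striatal markers had a median of 0.39, and *Adora2a*, the adenosine receptor of indirect-pathway neurons, was the 1 of 13 past 2-fold, at 5.10 and 2.01. Thalamic markers had a median of -0.28 with 0 of 8 past 2-fold. The tissue is labelled brain, and the defining markers of cortex, cerebellum and striatum were present in both groups. The sources used here do not say how much lower brainstem or cord each brain carried, and its part in the values of the *Hox*, cholinergic, noradrenergic and glycinergic genes was not tested.

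Among genes of brain inflammation, the GTPases induced by interferon-gamma and the MHC genes had nearly equal levels in the symptomatic groups. These GTPases, which attack vacuoles holding pathogens, had a median log2 ratio of 0.02 with 0 of 18 past 2-fold in either direction. Over all genes 1.02% were at least 2-fold higher and 0.503% lower, so a count of 0 of 18 is near those shares. *Igtp* was at 109 with CBD and 108 with CO, *Gbp2* at 65.6 and 62.2, *Irgm1* at 55.9 and 55.1 and *Tgtp2* at 37.2 and 47.0. For all 18 both means were deposited. Summed over the 18 genes, the level was 452 with CBD and 444 with CO in symptomatic mice, beside 25.4 and 18.3 in asymptomatic mice.

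MHC class II genes, which present antigen to CD4 T cells, had a median of -0.14 with 0 of 10 past 2-fold, *Cd74* being at 721 with CBD and 822 with CO and *H2-Aa* at 300 and 303. MHC class I and antigen processing genes had a median of -0.10 with 0 of 20 past 2-fold, and *B2m* was at 1128 and 1072. Complement genes had a median of 0.10 with 0 of 15 past 2-fold. T and NK cell markers had a median of -0.26 with 0 of 12 past 2-fold, *Cd3e*, a chain of the T cell receptor complex, being at 2.24 and 2.67. These counts of 0 are near the shares of all genes past 2-fold, 1.02% higher and 0.503% lower. Of 21 chemokines only *Ccl6* was past 2-fold, at 10.8 and 4.57, and *Ccl5* was at 120 and 145. The cytokines *Ifng*, *Il17a* and *Il6* were below a level of 1 in both groups.

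Type I interferon response genes shared 1 direction. All 23 at a level of 1 had a lower deposited mean with CBD, but 0 were past 2-fold and the median was -0.31. *Isg15*, a ubiquitin-like antiviral modifier, was at 31.6 with CBD and 57.2 with CO, *Bst2*, tetherin, at 116 and 143, and *Ifit3* at 42.5 and 54.2. No test across mice could be made, and the genes of such a response vary together.

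Most lists of myeloid and glial genes had medians above that of all genes. The counts past 2-fold stand beside 1.02% of all genes at least 2-fold higher and 0.503% lower. Monocyte and macrophage markers had a median of 0.36, with *Arg1* and *Chil3* past 2-fold of 17, and *Lyz2*, lysozyme, was at 568 with CBD and 351 with CO. Activated microglia genes had a median of 0.23, with *Gpnmb* and *Ccl6* past 2-fold of 18, and *Spp1*, osteopontin, was at 55.1 and 31.8. Homeostatic microglia markers had a median of 0.19 with 0 of 12 past 2-fold. Reactive astrocyte genes had a median of 0.35, *Gfap* being at 217 and 156 and *Hspb1*, a small heat-shock protein, the 1 of 19 past 2-fold at 53.5 and 26.1. Neutrophil markers had a median of -0.37 with 0 of 7 past 2-fold, *S100a9* being at 33.2 and 43.0. Higher clinical scores in the EAE/CBD symptomatic mice accompany these values, and their part in them was not tested.

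Myelin genes had a median of 0.49, and *Mobp*, a myelin basic protein of oligodendrocytes, was the 1 of 15 past 2-fold, at 76.8 with CBD and 33.5 with CO. Of all genes 1.02% were at least 2-fold higher. *Mbp* was at 430 and 234, while *Mog*, the protein whose peptide induces the disease, was at 45.4 and 43.1. The list thus held members near equality beside members approaching 2-fold.

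Genes of red blood cells were lower with CBD. Of 5 at a level of 1, 4 were at least 2-fold lower, with a median of -1.27, against 0.503% of all genes. *Hba-a1* and *Hba-a2*, near-identical alpha globin genes that share reads, were at 134 and 102 with CBD and 391 and 291 with CO. *Hbb-bs* was at 122 and 231, and *Alas2*, which starts haem synthesis in red cells, at 0.963 and 2.33. Choroid plexus markers had a median of -0.66 with *Ttr* and *Otx2* past 2-fold of 8. Immediate early genes, induced by neuronal activity, had a median of -0.49 with *Egr4* and *Nr4a1* past 2-fold of 16. The genes past 2-fold in both lists were lower with CBD, against 0.503% of all genes. *Fos* was at 13.7 with CBD and 24.2 with CO.

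Genes of the cannabinoid system and proposed targets of CBD had a median of 0.04, equal to that over all genes. *Adora2a* was the 1 of 21 past 2-fold, against 1.02% of all genes at least 2-fold higher. *Cnr1*, the main cannabinoid receptor of neurons, was at 13.9 with CBD and 13.1 with CO, *Faah*, which degrades anandamide, at 14.1 and 15.0, and *Cnr2*, the receptor of immune cells, at 0.31 and 0.30. Cholesterol synthesis genes had a median of 0.14 with 0 of 16 past 2-fold. Reference genes had a median of -0.05 over 12, *Gapdh* being at 989 and 1084 and *Actb* at 620 and 765.

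**Figure D5:**
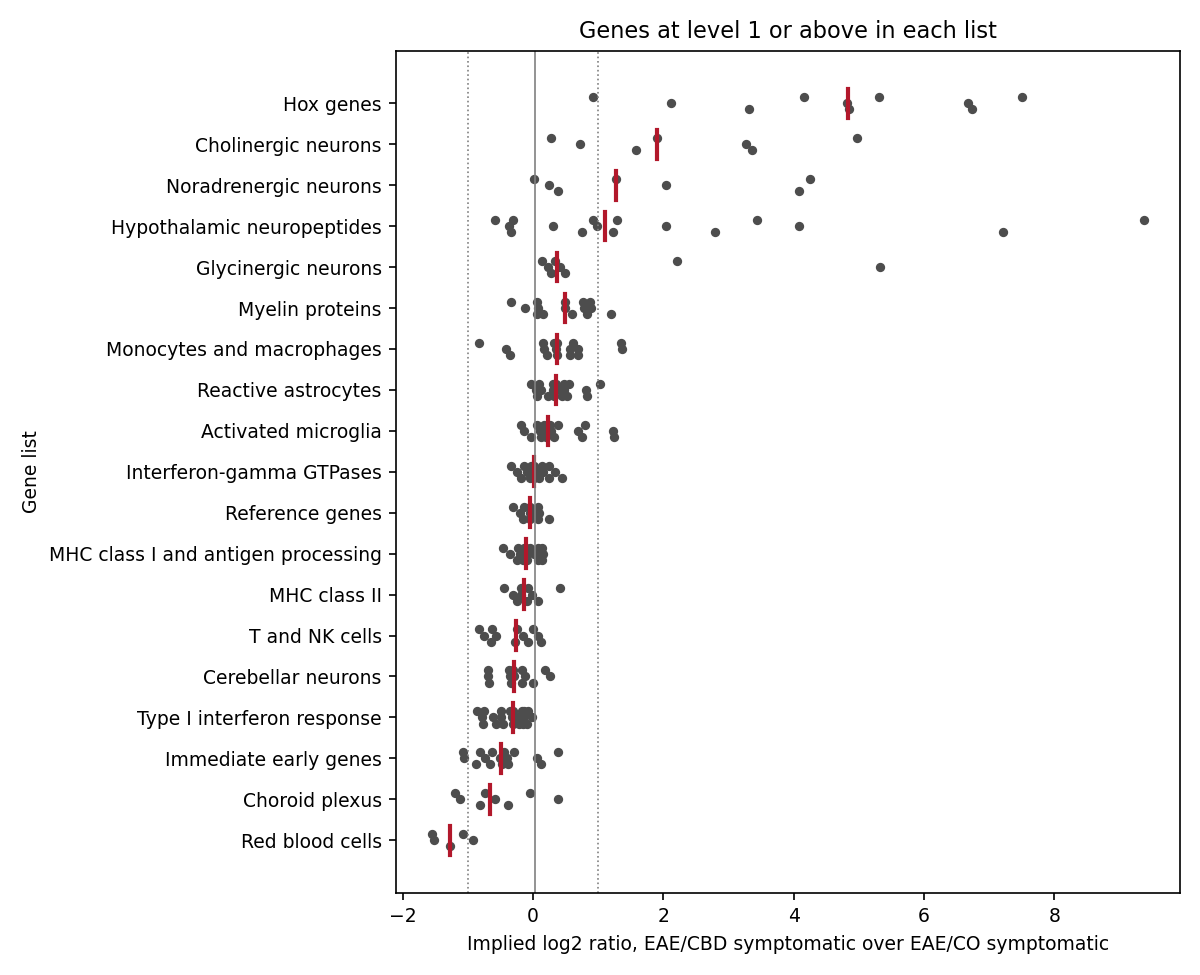
Implied log2 ratio of EAE/CBD symptomatic over EAE/CO symptomatic for the genes at a level of 1 or above in 19 lists; each point is a gene, red bars are list medians, the grey line is the median of all genes (0.04) and the dotted lines mark 2-fold. *Hox* genes reach a median of 4.83 and red blood cell genes one of -1.27, while interferon-gamma GTPases and MHC genes lie close to 0.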

How the data were processed

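Whole-brain RNA of mice with EAE was sequenced, and according to the methods of the study trimming, mapping to GRCm39 and testing were done in the CLC Genomics Workbench. The sources used here give no version of it, and the submitters' processing notes also name GRCm38. The authors deposited comparisons, not values per mouse. The log2 fold change of each gene was computed by the authors from a negative binomial generalised linear model. The p-value and FDR were likewise deposited by the authors, with the larger group mean, called the level, and a signed fold-change. These comparison columns are the only values used. The depth behind each value is unknown, so no counting interval is given.

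The symptomatic mean of a treatment was the larger mean, or that mean divided by the size of the fold-change where the sign placed the larger mean in asymptomatic mice. The log2 of the EAE/CBD over the EAE/CO symptomatic mean was described for genes with either mean at least 1, and 2-fold was the limit for counts. No test was run on it. For a standard error, the log2 fold change was divided by the normal quantile that belongs to its p-value (two-sided, p limited to 1e-16), and intervals are 95% intervals. The calculation was tested on simulated data whose fold-changes were exact ratios of the means. That test checks the arithmetic only and does not cover the error of fitted fold-changes.

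Of 48 gene lists, those that bear on the comparison are given. The members and lists were chosen with earlier results of these data known. Named genes were the 14 of the deposited table, the 10 highest and 10 lowest ratios, and in each list the most abundant members and those past 2-fold, with a few defining genes added. Some genes that the rule names are not reported here. Alternatives varied the minimum level, fold limit, added constant and centring. Python 3.11.15, pandas 2.3.3, numpy 2.4.6 and scipy 1.17.1 were used.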

Additional observations from a re-analysis of the deposited data

How the results depend on the processing

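The main counts were 130 genes at least 2-fold higher and 64 lower with CBD. They were 946 and 811 with no minimum level, 33 and 13 at a minimum of 5, 57 and 30 where both means had to reach 1, 680 and 352 at 1.5-fold, 38 and 3 at 4-fold, and 54 and 17 with 1 added to both means. Among genes with both symptomatic means deposited, an alternative chosen after seeing the data, they were 17 and 4. With 0.1 added they were 118 and 59, centred on the median 120 and 72. The log2 fold change column gave 131 and 64, the EAE/CO comparison as listed in the other direction 130 and 64, and the larger mean taken as symptomatic under 1.5-fold, also chosen after seeing the data, 132 and 58. The median of all genes stayed between 0.00 and 0.04.

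With no minimum level the list medians were 3.53 for *Hox* genes and 1.57 for noradrenergic markers, and at a minimum of 5 they were 5.99 and 0.13, with 2 genes left in each. At a minimum of 5 the medians were 0.93 for cholinergic markers (2 genes), 0.53 for hypothalamic neuropeptides (8 genes) and -0.97 for choroid plexus (2 genes). With 0.1 added the *Hox* median was 3.49. With no minimum level, medians turned sign for pituitary hormones (0.92 to -0.99), thalamus and habenula (-0.28 to 0.31), hindbrain and spinal transcription factors (-0.12 to 1.18) and dopamine markers (0.02 to -0.61). They moved from 0.11 to 0.95 for hypothalamic transcription factors and from 0.30 to 0.58 for serotonin markers. The cause was not tested. The 14 genes of the deposited table fell to 11 at FDR ≤ 0.01.

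The means rest on few mice, most ratios past 2-fold on implied means at low levels, and the placing of 1 mouse differs between sources. Leaving out single mice was not possible without values per mouse. No paired analysis was possible because no values per mouse were used and the labels carry no shared replicate numbers.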

Other observations

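Some genes with both symptomatic means deposited and at least a 2-fold difference belong to none of the lists above, and were picked after their values were seen. *Apoc4*, an apolipoprotein, was at 1.07 with CBD and 0.16 with CO, *Fabp4*, a fatty acid carrier of fat cells and macrophages, at 1.01 and 0.26, and *Serpinb1b*, a protease inhibitor, at 4.71 and 1.56. *Il6ra*, the interleukin-6 receptor, was at 1.43 and 0.54, and *F13a1*, a clotting factor subunit of macrophages, at 2.08 and 0.99. Lower with CBD were *Ccl27b*, a chemokine, at 1.72 and 4.71, and *Tnfrsf25*, a receptor of the tumour necrosis factor family on T cells, at 0.74 and 1.75. No test across mice was made for these genes.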
